A study of Homo sapiens with 16 samples.

Results

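The genes described here are 40 genes of the G2 phase and of mitosis, followed by gene symbol in RNA-Seq of sorted breast cancer sublines. They were listed by function, although with earlier results of these data known. All 40 were found among the 57820 genes counted in the study. Each of the 40 also passed the filter on low counts in both serum conditions, so no member was left out of a test.

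MDA-MB-231 and MDA-MB-436 are established human triple-negative breast cancer lines of mesenchymal type. Both carried the 7TGP reporter, in which repeated Tcf binding sites drive eGFP beside a puromycin resistance gene, and each line had been sorted repeatedly by flow cytometry into a bright subline (7TGP-POS) and a dark subline (7TGP-NEG). Each subline was grown in low serum (0.5% FBS, harvested on day 3) and in standard serum (10% FBS, harvested on day 6), with 2 biological replicates each, which makes 8 groups and 16 libraries. The question was which transcripts go with an active reporter in each line. There was 1 pair of sublines per line, so that the tests measure the spread between replicate cultures of a subline and not between independent sorts. The study's methods give each line its own culture medium, whereas the sample labels name the same medium for both; where the media differed, line and medium cannot be told apart. Low serum libraries were depleted of ribosomal RNA and standard serum libraries selected for polyadenylated RNA on another sequencer, again per the methods, whereas the sample labels name a single kit. Serum, days in culture, kit and sequencer cannot be told apart, and their values are set side by side without a test.

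Cells enter mitosis when CDK1, bound to cyclin A or B, is switched on by CDC25 phosphatases and held on by kinases such as PLK1 and the Aurora kinases. The spindle checkpoint then holds sister chromatids together until every kinetochore is attached, after which CDC20 directs the anaphase-promoting complex to degrade securin and cyclin B. Transcripts of these genes build up late in the cell cycle under the factors B-MYB, FOXM1 and NF-Y and are repressed in quiescent cells by the DREAM complex, so that in bulk RNA they are widely read as a gauge of dividing cells.

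Many late cell cycle promoters hold a CHR element (TTTGAA, less often TTCGAA), where the MuvB core of DREAM and of B-MYB complexes binds, and CCAAT boxes, bound by NF-Y. To show this architecture, the stretch from 150 bases before to 30 bases after the transcription start is shown for 4 of them: CDK1 and CCNB1 as the core of the switch, and HMMR and KIF4A as the members named most often by the rule for named genes. The sequences are RefSeq's on GRCh38.p14, all on the + strand, read 5′ to 3′, and capitals mark TTTGAA and CCAAT on either strand (TTCAAA and ATTGG on the other), which in HMMR overlap at one place. CDK1 is at chr10:60778328-60778507, CCNB1 at chr5:69167000-69167179, HMMR at chr5:163460482-163460661 and KIF4A at chrX:70289954-70290133.
CDK1: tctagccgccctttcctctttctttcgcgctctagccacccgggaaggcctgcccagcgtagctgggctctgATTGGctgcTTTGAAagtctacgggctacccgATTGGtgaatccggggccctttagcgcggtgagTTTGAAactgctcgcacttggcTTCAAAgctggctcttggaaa
CCNB1: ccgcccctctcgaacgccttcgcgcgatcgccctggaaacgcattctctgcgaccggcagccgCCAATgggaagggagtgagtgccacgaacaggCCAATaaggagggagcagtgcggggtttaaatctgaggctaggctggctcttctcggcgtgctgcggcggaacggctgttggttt
HMMR: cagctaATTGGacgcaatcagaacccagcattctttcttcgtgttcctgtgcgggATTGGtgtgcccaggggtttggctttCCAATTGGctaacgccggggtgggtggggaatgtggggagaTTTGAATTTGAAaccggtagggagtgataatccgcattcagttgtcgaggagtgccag
KIF4A: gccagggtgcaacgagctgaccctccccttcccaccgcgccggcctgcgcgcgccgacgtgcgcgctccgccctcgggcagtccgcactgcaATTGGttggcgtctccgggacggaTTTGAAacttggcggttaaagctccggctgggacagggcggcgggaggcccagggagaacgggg
CDK1 has 2 RefSeq windows, and the stretch shown is from the window with the most matches to these elements, so its count is not a neutral pick. The CDK1 stretch held 3 matches to TTTGAA and 2 to CCAAT, and the HMMR stretch 2 and 4. KIF4A held 1 of each, and CCNB1 held 2 CCAAT boxes and no CHR of these letters. Over windows of 300 bases around the start, which were at hand for 33 of the 40 members, TTTGAA was present in 23 (69.7%) against 18.2% of all 27305 genes with a window, and TTCGAA in 3 (9.09%) against 1.82%. CCAAT was present in 27 members (81.8%) against 39.7% of all genes, where a gene counts if any of its windows holds the element. Both elements stood in the same window for 21 members (63.6%) and for 7.85% of all genes. A match describes the letters only and is not a measured binding site.

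The libraries held 27918418 to 32667756 counts in low serum and 31827130 to 46044073 in standard serum. CPM values below are counts relative to library size, scaled by TMM factors, and the lowest count of any member in any library was 101, for CDC25C. The mesenchymal marker VIM had at least 19591 counts in every library, the epithelial marker CDH1 had 1 to 12, and the leukocyte marker PTPRC had 3 to 334. Other markers were mixed. The epithelial markers KRT18 and EPCAM had 3294 to 15137 and 44 to 270 counts. The mesenchymal marker CDH2 had 7 to 44 counts in MDA-MB-231 and 4620 to 11275 in MDA-MB-436. The hormone receptor genes ESR1 and PGR had at most 25 and 32 counts, while the receptor gene ERBB2 had 1718 to 3570.

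In MDA-MB-231 in low serum, mitotic genes were mostly higher in 7TGP-POS cells, by small amounts. Of the 40 members, 25 were higher, 4 were lower and 11 did not pass the test (edgeR's quasi-likelihood test, Benjamini-Hochberg adjusted p under 0.05 over 16069 genes). Of all genes tested, 19% were higher and 19.9% were lower. The members' median log2 fold change was 0.21, beside −0.01 for all genes, and ranged from −0.35 for KIF23 to 0.77 for KIF4A. No member reached the log2 fold change of 1 that, with the adjusted p, defines a DEG here, whereas 5.9% of all genes were DEGs. In bulk RNA, a change in the number of cells in G2 or mitosis and a change in transcript per such cell cannot be told apart. The count of lower members was 2 without 7TGP-POS replicate 1.

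In MDA-MB-436 in low serum, mitotic genes were mostly lower in 7TGP-POS cells. Here 34 members were lower, 2 were higher and 4 did not pass, against 25.3% lower and 26.6% higher among all genes. The median log2 fold change was −0.47, beside 0.01 for all genes, and ranged from −1.21 for PTTG1 to 0.20 for BUB3. PTTG1 was the 1 DEG among the members, and 10.5% of all genes were DEGs. Without 7TGP-POS replicate 2 there were 2 member DEGs. Of the 2 higher members, BUB3, a checkpoint protein present throughout the cell cycle, kept its call in every alternative analysis, and ANLN, a scaffold of the cleavage furrow, lost it without 7TGP-NEG replicate 2 or either 7TGP-POS replicate.

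In standard serum fewer members were called, and the medians had the same signs. In MDA-MB-231, 15 members were higher, 3 lower and 22 did not pass, beside 16.8% and 16.2% of the 15414 genes tested. The median log2 fold change was 0.20, with 0.00 for all genes, and the members ranged from −0.49 for CCNB2 to 0.87 for KIF4A. None was a DEG, as against 7.69% of all genes. This comparison leaned on single libraries: 8 members were higher without 7TGP-POS replicate 1, and 1 was lower without 7TGP-POS replicate 2. In MDA-MB-436, 14 members were lower, 4 higher and 22 did not pass, beside 23.4% lower and 26.1% higher among all genes. PTTG1 was again the only DEG, where 12.5% of all genes were DEGs. With library totals in place of TMM factors, 11 were lower and 7 higher. The members' median was −0.12, beside 0.00 for all genes. It became −0.20 without 7TGP-POS replicate 1 and −0.038 without 7TGP-POS replicate 2.

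Those 2 standard serum libraries of MDA-MB-436 7TGP-POS differed from each other more than any other replicate pair, by the median size of the members' differences. The members' difference between the replicates ranged from −0.36 on the log2 scale for UBE2C to 0.48 for CENPE, with a median size of 0.13. Across 12629 genes the difference went with the GC content of the transcript (Spearman's rho −0.636, a description across genes, which are not independent). Among the 40 members rho was −0.616. The trend was not limited to this pair. For the MDA-MB-231 7TGP-POS replicates in low serum, rho was 0.365 across 12970 genes and 0.481 among the members. Members have transcripts of low GC content, with a median of 43.7% beside 47.8% for all genes. The part of these differences between replicates in the members' values was not tested.

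**Figure D1:**
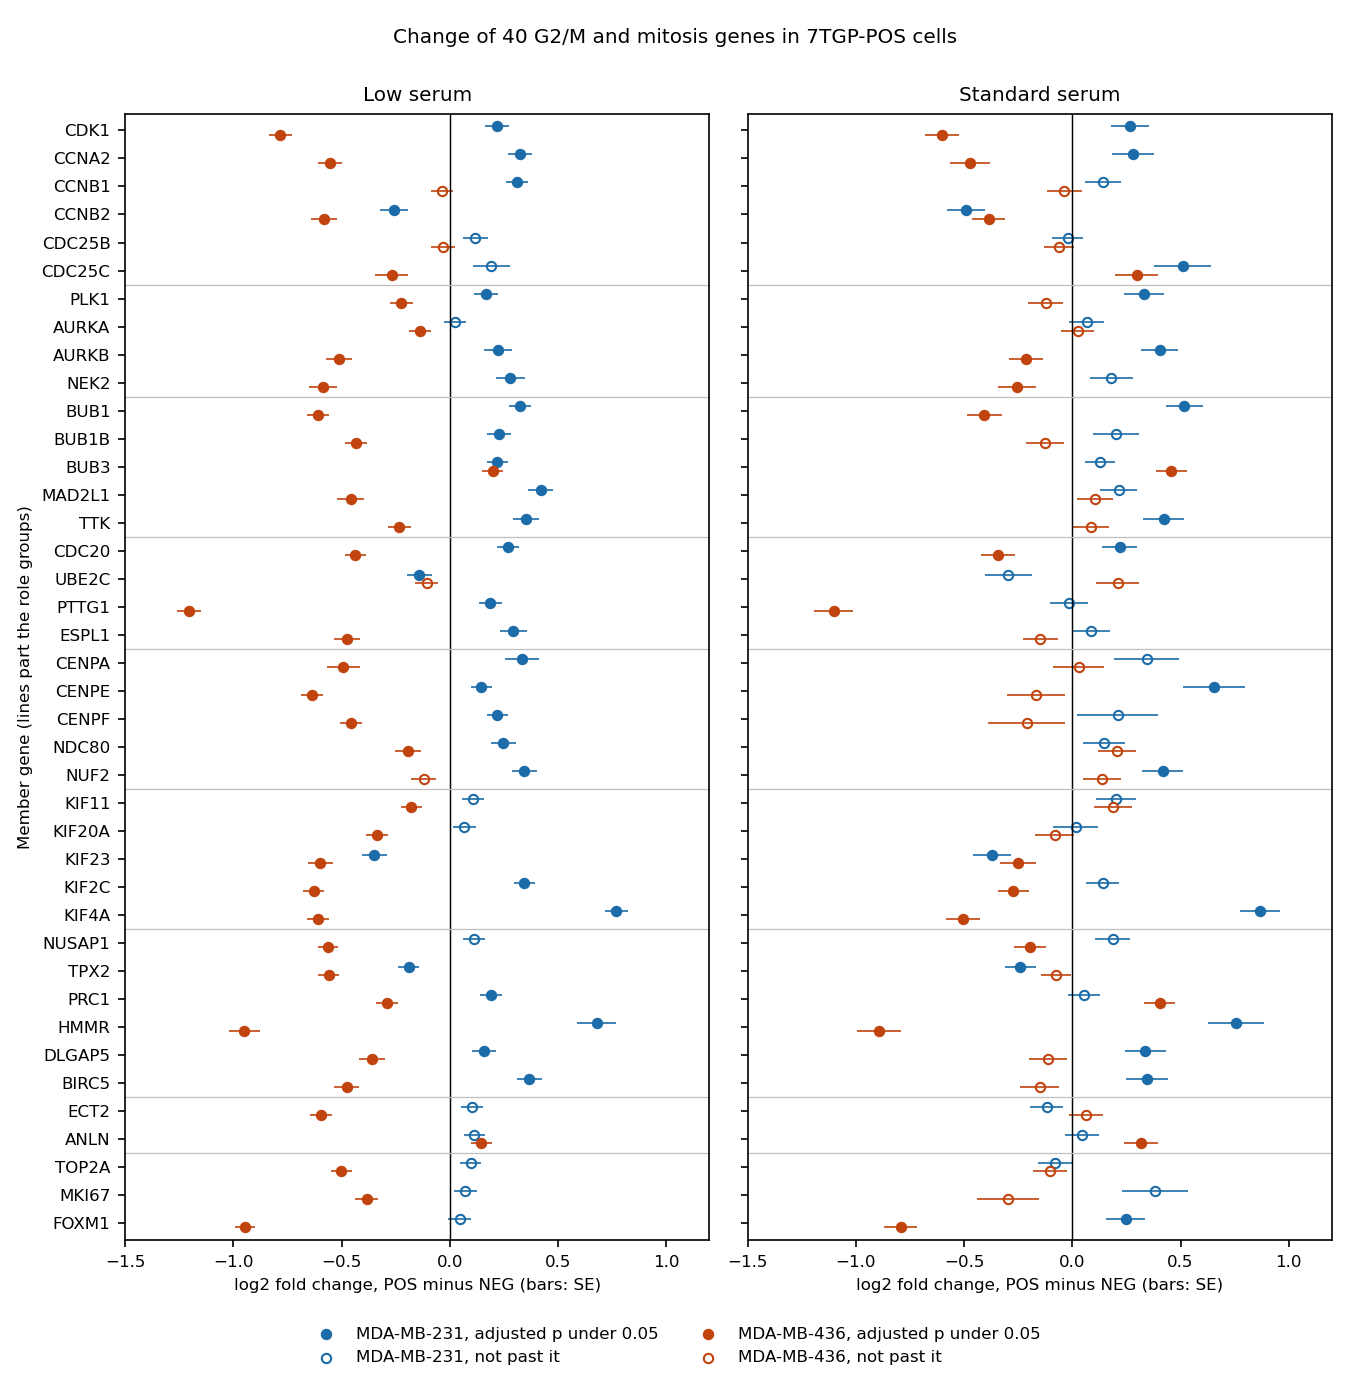
Log2 fold change of 7TGP-POS over 7TGP-NEG for each of the 40 members, by role, in MDA-MB-231 and MDA-MB-436 in low and standard serum, with bars of 1 SE and filled points for an adjusted p under 0.05. Most points of MDA-MB-231 lie right of 0 and most points of MDA-MB-436 in low serum lie left of it, with PTTG1 the farthest left and KIF4A the farthest right.

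The difference between the lines was tested in the same fit. In low serum, the change was significantly higher in MDA-MB-231 than in MDA-MB-436 for 35 members and lower for none, beside 21.1% and 24.6% of all genes, and the median difference was 0.63 on the log2 scale. In standard serum it was higher for 18 and lower for 3, beside 18.8% and 22.4% of all genes, with a median difference of 0.32. The 3 were BUB3, UBE2C and PRC1, none of which kept this call in every alternative: their number was 5 without MDA-MB-436 7TGP-POS replicate 2 and 1 without MDA-MB-231 7TGP-POS replicate 2. Members called in opposite directions in the lines, with a called difference, numbered 22 in low serum and 8 in standard serum, beside 11.6% and 9.15% of all genes tested.

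The low and standard serum libraries are separate, but they come from the same pair of sublines in each line. Calls in one are set beside calls in the other, which does not test independent sorts. For scale, the same counts were made over the 15286 genes tested in both. In MDA-MB-231, 13 members were higher in both, beside 11.3% of those genes, which is 13 of the 25 higher in low serum and 13 of the 15 higher in standard serum. They were CDK1, CCNA2, PLK1, AURKB, BUB1, TTK, CDC20, CENPE, NUF2, KIF4A, HMMR, DLGAP5 and BIRC5. Only BUB1, TTK, NUF2, KIF4A and HMMR of these kept both calls in every alternative analysis. CCNB2, KIF23 and TPX2 were lower in both, as were 10.9% of the genes, although none of them kept both calls in every alternative analysis. In MDA-MB-436, 14 members were lower in both, beside 15.7% of the genes, which is 14 of the 34 in low serum and all 14 in standard serum. Of these, AURKB, NEK2, KIF23 and NUSAP1 did not keep both calls in every alternative analysis. BUB3 and ANLN were higher in both there, as were 17.4% of the genes. CDK1, CCNA2, AURKB, BUB1, CDC20, KIF4A and HMMR, 7 in all, were higher in MDA-MB-231 and lower in MDA-MB-436 in both serum conditions, a pattern shown by 2.1% of the genes. Among these 7, BUB1, KIF4A and HMMR kept the calls of both lines in every alternative analysis. CDK1, CCNA2, AURKB and CDC20 each lost at least 1. CDC25B, a phosphatase that starts CDK1 activation at the centrosome, was called in none of the 4 comparisons.

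How far a call rested on 1 library differed between the comparisons. Leaving out each library in turn and changing the test, scaling, filter, gene set or block (10 alternatives, 11 for MDA-MB-436 in low serum), 33 of the 34 lower members of MDA-MB-436 in low serum kept their call throughout, as did 19 of the 25 higher ones of MDA-MB-231 in low serum. In standard serum 7 of 15 higher ones in MDA-MB-231 and 10 of 14 lower ones in MDA-MB-436 did so. The lower ones of MDA-MB-231 were less steady. In low serum 1 of 4 kept its call (KIF23), and in standard serum 1 of 3 did (CCNB2). TPX2 lost its call in at least 1 alternative in each condition. In MDA-MB-231 in low serum, calls were lost without 7TGP-NEG replicate 1 (CENPE, PRC1, DLGAP5), 7TGP-NEG replicate 2 (PLK1, AURKB, CENPE), 7TGP-POS replicate 1 (CCNB2, AURKB) or 7TGP-POS replicate 2 (CDK1, DLGAP5), besides UBE2C, lost without any of the 4. In MDA-MB-231 in standard serum they were lost without 7TGP-NEG replicate 1 (CCNA2, PLK1, CDC20, BIRC5, TPX2), 7TGP-NEG replicate 2 (CDK1, CDC25C, CDC20, DLGAP5, FOXM1), 7TGP-POS replicate 1 (CDK1, CDC25C, PLK1, CDC20, DLGAP5, BIRC5, FOXM1) or 7TGP-POS replicate 2 (CDK1, CCNA2, KIF23, TPX2, FOXM1). In MDA-MB-436 in low serum they were lost without 7TGP-NEG replicate 1 (AURKA), 7TGP-NEG replicate 2 (ANLN), 7TGP-POS replicate 1 (ANLN) or 7TGP-POS replicate 2 (ANLN), and in standard serum without 7TGP-NEG replicate 1 (CDC25C, AURKB, KIF23, NUSAP1), 7TGP-NEG replicate 2 (CDC25C, NEK2, KIF23, NUSAP1), 7TGP-POS replicate 1 (CDC25C) or 7TGP-POS replicate 2 (KIF23, NUSAP1).

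CDK1, the kinase that drives entry into mitosis, had 96.8 and 96.4 CPM in MDA-MB-231 7TGP-NEG and 105 and 120.4 CPM in 7TGP-POS in low serum. In MDA-MB-436 it had 194 and 196 CPM in 7TGP-NEG and 113 and 113 CPM in 7TGP-POS. The sublines did not overlap in either line, and their order was opposite. The log2 fold change was 0.22 (SE 0.056, adjusted p = 0.00151) in MDA-MB-231 and −0.78 (SE 0.054, adjusted p = 8.07e-16) in MDA-MB-436. Without MDA-MB-231 7TGP-POS replicate 2, the former was 0.11 and did not pass. In standard serum CDK1 had 27.8 and 24.7 CPM in MDA-MB-231 7TGP-NEG, 32.2 and 31.0 in 7TGP-POS, 145 and 140.0 in MDA-MB-436 7TGP-NEG and 98.8 and 89.2 in 7TGP-POS. The groups again stood apart, with log2 fold changes of 0.27 (SE 0.087, adjusted p = 0.0247) and −0.60 (SE 0.080, adjusted p = 6.26e-06). The first lost its call with DESeq2's test and without any 1 of 3 libraries (either 7TGP-POS replicate or 7TGP-NEG replicate 2).

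CCNB1 encodes cyclin B1, the main mitotic partner of CDK1. In low serum it had 164 and 162 CPM in MDA-MB-231 7TGP-NEG and 194 and 209.9 in 7TGP-POS, and 176 and 184 CPM in MDA-MB-436 7TGP-NEG and 179 and 173 in 7TGP-POS. It was thus higher in the bright cells of MDA-MB-231, by 0.31 on the log2 scale (SE 0.051, adjusted p = 3.15e-06), while the MDA-MB-436 groups overlapped, with a log2 fold change of −0.03 (SE 0.051, adjusted p = 0.602). In standard serum neither line gave a call, with log2 fold changes of 0.14 (adjusted p = 0.215) and −0.04 (adjusted p = 0.744). CCNB2, encoding the second B-type cyclin, was lower in the bright cells of both lines in both conditions, with log2 fold changes for MDA-MB-231 and MDA-MB-436 of −0.26 and −0.58 in low serum, then −0.49 and −0.39 in standard serum. CCNA2, encoding cyclin A2 of S and G2 phase, changed by 0.32 and −0.55 in low serum and by 0.28 and −0.47 in standard serum. CDC25C, encoding the phosphatase that frees CDK1 at mitotic entry, was higher in both lines in standard serum, by 0.51 and 0.30, but lower in MDA-MB-436 in low serum, by −0.27.

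Of the mitotic kinases, PLK1, which acts from centrosome maturation to cytokinesis, had 69.1 and 67.8 CPM in MDA-MB-231 7TGP-NEG and 77.3 and 76.6 in 7TGP-POS in low serum. It had 104 and 106 CPM in MDA-MB-436 7TGP-NEG and 92.2 and 88.0 in 7TGP-POS. The ranges did not overlap, and the log2 fold changes were 0.17 (SE 0.055, adjusted p = 0.0131) and −0.22 (SE 0.053, adjusted p = 0.000457), the former lost without 7TGP-NEG replicate 2. In standard serum PLK1 rose from 17.3 and 18 CPM to 22.4 and 22.0 in MDA-MB-231 (log2 fold change 0.33, SE 0.091, adjusted p = 0.00854), a call lost without 7TGP-POS replicate 1 or 7TGP-NEG replicate 1. In MDA-MB-436 it had 94.0 and 89.2 CPM in 7TGP-NEG and 78.6 and 89.8 in 7TGP-POS, which overlap, with a log2 fold change of −0.12 (adjusted p = 0.229). AURKB, the kinase of the chromosomal passenger complex, had log2 fold changes of 0.22 and −0.51 in low serum, then 0.40 and −0.21 in standard serum, all 4 called. AURKA, its relative at the spindle poles, was called only in MDA-MB-436 in low serum, at −0.14. NEK2, which splits centrosomes, had 0.28 and −0.58 in low serum and 0.18, which did not pass, and −0.26 in standard serum.

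In low serum all 5 spindle checkpoint members rose in the bright cells of MDA-MB-231, with log2 fold changes from 0.22 for BUB3 to 0.42 for MAD2L1, and 4 of the 5 fell in MDA-MB-436. MAD2L1, which withholds CDC20, had 56.3 and 54.3 CPM in MDA-MB-231 7TGP-NEG and 71.1 and 76.9 in 7TGP-POS in low serum (SE 0.059, adjusted p = 1.77e-07). In MDA-MB-436 it fell from 53.1 and 52.6 CPM to 38.9 and 38.1 (log2 fold change −0.46, adjusted p = 3.87e-08). In standard serum neither line gave a call for MAD2L1, with log2 fold changes of 0.21 and 0.11.

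BUB1, a checkpoint kinase of the kinetochore, separated the groups in each comparison. It rose in MDA-MB-231 from 111 and 112 CPM to 135 and 144 in low serum and from 32.9 and 29.5 to 46.6 and 42.8 in standard serum. It fell in MDA-MB-436 from 199 and 194 CPM to 128 and 129 in low serum and from 130.1 and 129 to 102 and 93.2 in standard serum. The log2 fold changes were 0.33, 0.52, −0.61 and −0.41 in this order, with adjusted p of 1.4e-06, 0.000113, 1.24e-13 and 0.00038. TTK, the kinase that starts checkpoint signalling, was higher in MDA-MB-231 in both conditions (0.35 and 0.42) and lower in MDA-MB-436 in low serum (−0.23), and did not pass in MDA-MB-436 in standard serum (0.09). BUB3 was the exception of the group in MDA-MB-436 in low serum, at 0.20. In standard serum it was higher there by 0.46, while BUB1 was lower and 3 of the 5 did not pass.

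Among the genes of anaphase, PTTG1 encodes securin, the inhibitor of separase. It had 118 and 119 CPM in MDA-MB-231 7TGP-NEG and 133 and 137 in 7TGP-POS in low serum. In MDA-MB-436 it had 128 and 136 CPM in 7TGP-NEG and 59.6 and 54.6 in 7TGP-POS. The bright MDA-MB-436 cells therefore held far less PTTG1 RNA than any other low serum group, with a log2 fold change of −1.21 (SE 0.055, adjusted p = 1.23e-21), whereas MDA-MB-231 gave 0.19 (SE 0.053, adjusted p = 0.00406). In standard serum MDA-MB-436 fell from 130.2 and 113 CPM to 57.1 and 56.2 (log2 fold change −1.10, SE 0.089, adjusted p = 1.25e-08). MDA-MB-231 had 77.0 and 76.4 CPM in 7TGP-NEG and 82.2 and 69.7 in 7TGP-POS, where the dark values lie between the bright ones (log2 fold change −0.02, adjusted p = 0.947). PTTG1 has near-identical copies elsewhere in the genome, of which PTTG2 had 0 counts and PTTG3P 4 to 24 in low serum and 0 to 3 in standard serum, beside 1476 to 3983 and 2181 to 4571 for PTTG1.

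CDC20, the activator of the anaphase-promoting complex, changed by 0.27 and −0.44 in low serum and by 0.22 and −0.34 in standard serum, all 4 called, although the 0.22 was lost with DESeq2's test and without any 1 of 3 libraries (7TGP-POS replicate 1 or either 7TGP-NEG replicate). ESPL1, the separase that cuts cohesin, was called in low serum, at 0.29 and −0.47, and did not pass in standard serum, at 0.09 and −0.15. UBE2C, the ubiquitin-conjugating enzyme of the complex, was near the threshold in MDA-MB-231 in low serum at −0.14 (adjusted p = 0.0481), a call that 9 of 10 alternative analyses did not keep.

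The 5 centromere and kinetochore members all rose in MDA-MB-231 in low serum, from 0.15 for CENPE to 0.35 for NUF2, and 4 of the 5 were lower in MDA-MB-436. In standard serum 2 of the 5 were higher in MDA-MB-231, and none passed in MDA-MB-436. CENPE, the kinesin that brings chromosomes to the spindle equator, had 20.5 and 19.5 CPM in MDA-MB-231 7TGP-NEG and 31.9 and 31.1 in 7TGP-POS in standard serum (log2 fold change 0.65, SE 0.14, adjusted p = 0.00565). In low serum it had 167 and 168 CPM and 186 and 184 CPM (log2 fold change 0.15, adjusted p = 0.0172), lost without either 7TGP-NEG replicate. In MDA-MB-436 CENPE fell from 147 and 138 to 93.0 and 90.5 CPM in low serum (log2 fold change −0.64, adjusted p = 8.06e-14). In standard serum the 7TGP-POS values of 48.4 and 34.6 CPM overlapped the 7TGP-NEG values of 44.2 and 49.2 (log2 fold change −0.17, adjusted p = 0.339).

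**Figure D2:**
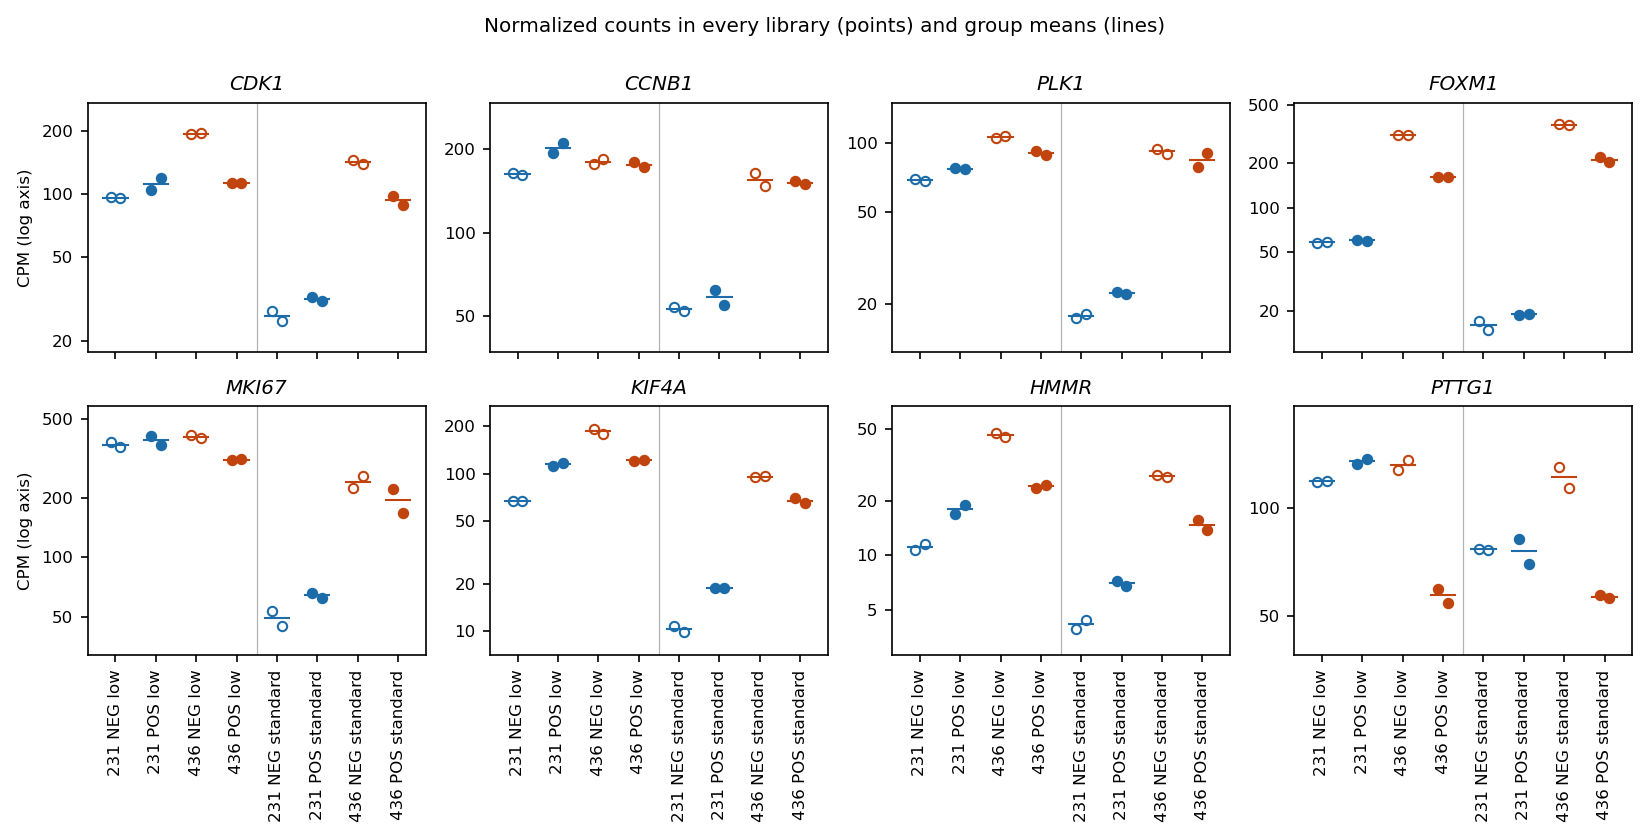
CPM (TMM-scaled, log axis) of 8 members in each of the 16 libraries, open points for 7TGP-NEG and filled points for 7TGP-POS, with a line at each group mean. KIF4A and HMMR rise from NEG to POS in MDA-MB-231 and fall in MDA-MB-436 in both serum conditions, PTTG1 falls in MDA-MB-436, and CCNB1 overlaps there.

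KIF4A, a chromosome-bound kinesin that organises the central spindle, had the largest change of any member in MDA-MB-231. Low serum values were 66.9 and 67.3 CPM in 7TGP-NEG and 112 and 116 in 7TGP-POS (log2 fold change 0.77, SE 0.054, adjusted p = 2.4e-15). In standard serum it had 10.8 and 9.88 CPM against 18.9 and 18.9 (log2 fold change 0.87, SE 0.091, adjusted p = 7.24e-07). Every bright library stood above every dark one. In MDA-MB-436 the order was turned, with 191 and 179 CPM in 7TGP-NEG against 121 and 122 in 7TGP-POS in low serum and 94.9 and 96.8 against 69.8 and 65.3 in standard serum. These are log2 fold changes of −0.61 (SE 0.051, adjusted p = 1.84e-13) and −0.51 (SE 0.077, adjusted p = 2.96e-05). The difference between the lines was 1.38 in low serum and 1.37 in standard serum on the log2 scale (adjusted p = 4.02e-19 and 5.53e-08). KIF4A overlaps PDZD11 on the opposite strand, and whether the counting used strand is not given in the sources used here. PDZD11 changed in MDA-MB-231 and MDA-MB-436 by 0.54 and 0.02 in low serum, then by 0.75 and −0.23 in standard serum. It had 1087 to 2098 counts in standard serum, beside 282 to 3903 for KIF4A. CDC25C overlaps FAM53C, and KIF20A overlaps CDC23 and BRD8, in the same way. In standard serum FAM53C had 2355 to 5071 counts, beside 101 to 1057 for CDC25C. It changed there by −0.11 in MDA-MB-231 and 0.41 in MDA-MB-436. In low serum CDC23 changed by −0.06 and 0.34 in the same order, and BRD8 by −0.30 and 0.55. The part of these overlaps in the members' values was not tested.

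KIF2C, the microtubule-depolymerising kinesin that corrects faulty attachments, rose in MDA-MB-231 from 148 and 156 CPM to 189 and 197 in low serum (log2 fold change 0.35, adjusted p = 2.81e-07). In MDA-MB-436 it fell from 291 and 284 CPM to 189 and 182 (log2 fold change −0.63, adjusted p = 2.78e-14). The bright cells of the lines thus had like values, and the dark cells did not. KIF23, a motor of the midbody, was lower in the bright cells of both lines in both conditions, at −0.35 and −0.60 in low serum, then −0.37 and −0.25 in standard serum. KIF11, which pushes spindle poles apart, and KIF20A, a kinesin of cytokinesis, passed the test in neither condition in MDA-MB-231.

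HMMR, a hyaluronan-binding spindle protein, had low counts but wide gaps. In low serum it had 10.8 and 11.6 CPM in MDA-MB-231 7TGP-NEG and 16.9 and 19 in 7TGP-POS, and 47.6 and 45.3 CPM in MDA-MB-436 7TGP-NEG and 23.6 and 24.5 in 7TGP-POS. The log2 fold changes were 0.68 (SE 0.090, adjusted p = 4.7e-08) and −0.95 (SE 0.072, adjusted p = 1.29e-14). In standard serum it rose from 3.95 and 4.38 CPM to 7.23 and 6.83 in MDA-MB-231 (0.76, SE 0.13, adjusted p = 0.000146) and fell from 27.8 and 27.0 to 15.6 and 13.9 in MDA-MB-436 (−0.89, SE 0.10, adjusted p = 9.51e-07). The groups overlapped in no comparison. The differences between the lines, 1.63 and 1.65, were the largest of any member in both serum conditions.

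The other spindle members were less uniform. DLGAP5, which stabilises kinetochore fibres, and BIRC5, the survivin subunit of the passenger complex, were higher in MDA-MB-231 in both conditions, by 0.16 and 0.34 and by 0.37 and 0.35. Both were lower in MDA-MB-436 in low serum, by −0.36 and −0.48. TPX2, the activator of AURKA, was lower in MDA-MB-231 in both conditions, by −0.19 and −0.24, and in MDA-MB-436 in low serum, by −0.56. PRC1, which bundles microtubules of the central spindle, was called at 0.19 and −0.29 in low serum but at 0.40 in MDA-MB-436 in standard serum. NUSAP1, a microtubule-binding protein of the spindle, had 111 and 113 CPM in MDA-MB-231 7TGP-NEG, 119 and 123 in 7TGP-POS, 321 and 326 in MDA-MB-436 7TGP-NEG and 220.4 and 218 in 7TGP-POS in low serum. It fell in MDA-MB-436 by 0.56 on the log2 scale and did not pass in MDA-MB-231, at 0.11. In standard serum it had 25.4 and 25.2, 30.5 and 27.1, 226 and 222, and 201 and 191 CPM in the same order. Of the cytokinesis members, ECT2, the activator of RhoA at the cleavage furrow, fell by 0.60 in MDA-MB-436 in low serum and was called in none of the other 3 comparisons, with 0.10 and −0.12 in MDA-MB-231 and 0.06 in MDA-MB-436 in standard serum.

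FOXM1, a transcription factor of many of these genes, had much higher values in MDA-MB-436 than in MDA-MB-231. It had 57.8 and 58.6 CPM in MDA-MB-231 7TGP-NEG and 60.4 and 59.7 in 7TGP-POS in low serum, close to each other (log2 fold change 0.05, SE 0.054, adjusted p = 0.557). In MDA-MB-436 it had 310.1 and 312 CPM in 7TGP-NEG and 162 and 161 in 7TGP-POS (log2 fold change −0.95, SE 0.048, adjusted p = 3.53e-20). In standard serum MDA-MB-436 fell from 367 and 364 to 219 and 202 CPM (log2 fold change −0.79, SE 0.076, adjusted p = 1.2e-07). MDA-MB-231 had 17.0 and 14.7 CPM in 7TGP-NEG and 18.7 and 18.9 in 7TGP-POS, with a log2 fold change of 0.25 (SE 0.090, adjusted p = 0.0427) that lost its call with DESeq2's test and without any 1 of 3 libraries (either 7TGP-POS replicate or 7TGP-NEG replicate 2, where it was 0.15). FOXM1 overlaps RHNO1 on the opposite strand, and whether the counting used strand is not given in the sources used here. RHNO1 changed in MDA-MB-231 and MDA-MB-436 by 0.26 and −0.29 in low serum, then by 0.53 and −0.20 in standard serum.

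MKI67, the gene of the proliferation antigen Ki-67, had 379 and 360.2 CPM in MDA-MB-231 7TGP-NEG and 409 and 368 in 7TGP-POS in low serum, which overlap (log2 fold change 0.07, SE 0.051, adjusted p = 0.287). In MDA-MB-436 it fell from 413 and 398 CPM to 308 and 313 (log2 fold change −0.38, SE 0.051, adjusted p = 3.16e-08). In standard serum it had 53.6 and 44.9 against 65.9 and 62.6 CPM in MDA-MB-231, and 223 and 256 against 222 and 168 in MDA-MB-436. Neither passed (0.38, SE 0.15, adjusted p = 0.101, and −0.30, SE 0.15, adjusted p = 0.134), although DESeq2 called both. TOP2A, the topoisomerase that untangles sister chromatids, was called only in MDA-MB-436 in low serum, at −0.50.

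The change of each member was also set beside the changes of the genes around it. For each member, the median change of its 50 nearest genes with at least 1 CPM was taken as its surroundings. In MDA-MB-231 in low serum all 40 members were above their own surroundings, as were 51% of all genes, and the median gap was 0.17. In MDA-MB-436 in low serum 39 were below theirs, with a median gap of −0.48, whereas 50% of all genes were above. In standard serum 32 were above in MDA-MB-231 and 28 below in MDA-MB-436, with median gaps of 0.18 and −0.26.

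The members that were lower in MDA-MB-231 lie among genes that were lower too. KIF23 and CCNB2 are on chromosome 15 and TPX2 and UBE2C on chromosome 20. In low serum the median log2 fold change of their neighbours was −0.46, −0.34, −0.32 and −0.31. Of the 50 genes around TPX2, 48 had a value below 0. AURKA, also on chromosome 20, had neighbours at −0.35 and stood at 0.02 itself. KIF4A, the member with the largest rise, lies on the X chromosome among genes that were higher, with a low serum median of 0.51 and a standard serum median of 0.73, and 45 and 46 of 50 above 0, so that its gap to them was 0.26 and 0.14. HMMR, in contrast, had neighbours at 0.06 and −0.02 and a gap of 0.62 and 0.78. In MDA-MB-436 FOXM1 had neighbours at −0.37 and −0.42, CDK1 at −0.28 and −0.29, and PTTG1 at −0.29 and −0.17, while the gap of PTTG1 was −0.91 and −0.93. DNA copy number was not analysed here, and its part in these values was not tested.

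**Figure D3:**
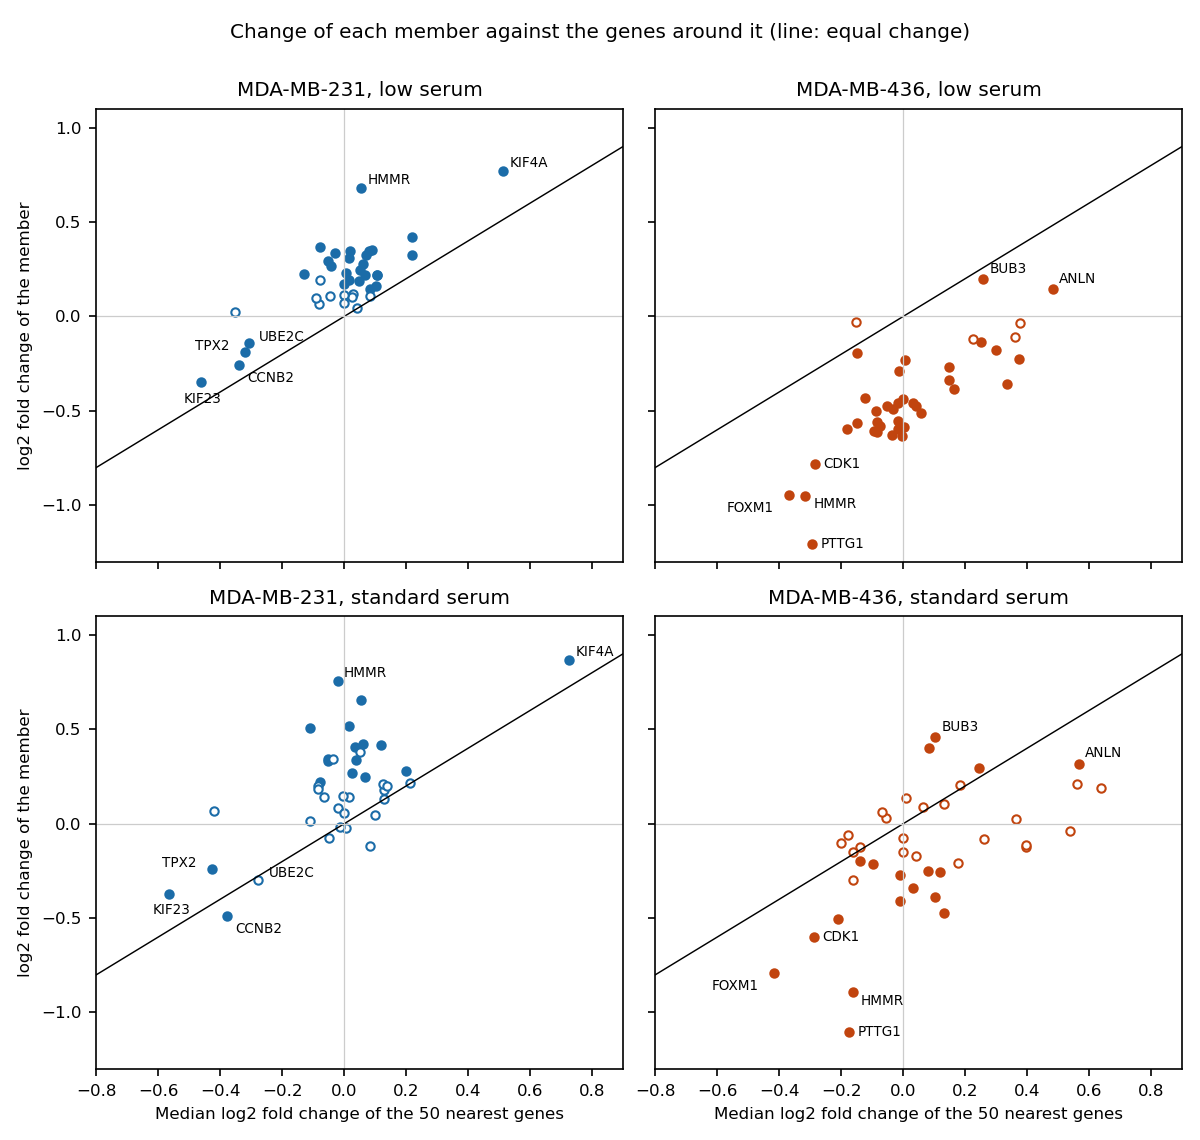
Log2 fold change of each member (vertical axis) against the median log2 fold change of its 50 nearest genes (horizontal axis) in the 4 comparisons, filled where the adjusted p was under 0.05, with a line at equal change. All 40 points lie above the line in MDA-MB-231 in low serum and 39 lie below it in MDA-MB-436, and KIF23, CCNB2, TPX2 and UBE2C sit at the lower left in MDA-MB-231.

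The members together took a larger or smaller share of the coding transcriptome in the same sense. On a scale of TPM divided by the share of TPM that falls on protein-coding genes, which allows genes of unlike length to be added, the 40 members summed in low serum to 5478 and 5429 in MDA-MB-231 7TGP-NEG and to 6144 and 6326 in 7TGP-POS. In MDA-MB-436 they summed to 7632 and 7450 in 7TGP-NEG and to 5916 and 5957 in 7TGP-POS. The bright cells of the lines thus lay nearer to each other than the dark cells did. In standard serum the sums were 1731 and 1668 against 1910 and 1823 in MDA-MB-231 and 5158 and 5199 against 5025 and 5012 in MDA-MB-436. The sums of 29 S phase genes did not follow in MDA-MB-436 in low serum, at 3844 and 3813 in 7TGP-NEG and 3814 and 3787 in 7TGP-POS. The rescaling was made because protein-coding genes made up 41.0% to 69.6% of TPM in the low serum libraries and 94.3% to 95.7% in standard serum.

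Levels differed widely among members on this scale. In MDA-MB-231 7TGP-NEG in low serum, TOP2A was highest at 386 ± 9.68 (SD, n = 2), then BUB3 at 325 ± 0.571, ANLN at 316 ± 0.0984 and CDC20 at 287 ± 3.07, and the gaps between these neighbours were larger than their SDs. HMMR was lowest at 12.1 ± 0.472, below CDC25C at 22.3 ± 0.169 and ESPL1 at 22.6 ± 0.497, which did not differ beyond their spread. In MDA-MB-436 7TGP-NEG in low serum CDC20 led at 549.6 ± 0.658, before NUSAP1 at 484 ± 2.33 and TPX2 at 417 ± 13.9, and CDC25C was lowest at 34.4 ± 0.470. In standard serum the order in MDA-MB-231 7TGP-NEG was headed by BUB3 at 379.6 ± 0.639, far above PTTG1 at 133 ± 2.10 and ECT2 at 97.8 ± 5.02, and HMMR was lowest at 3.70 ± 0.235. In MDA-MB-436 7TGP-NEG it was headed by CDC20 at 427 ± 1.24 and UBE2C at 388 ± 24.9.

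**Figure D4:**
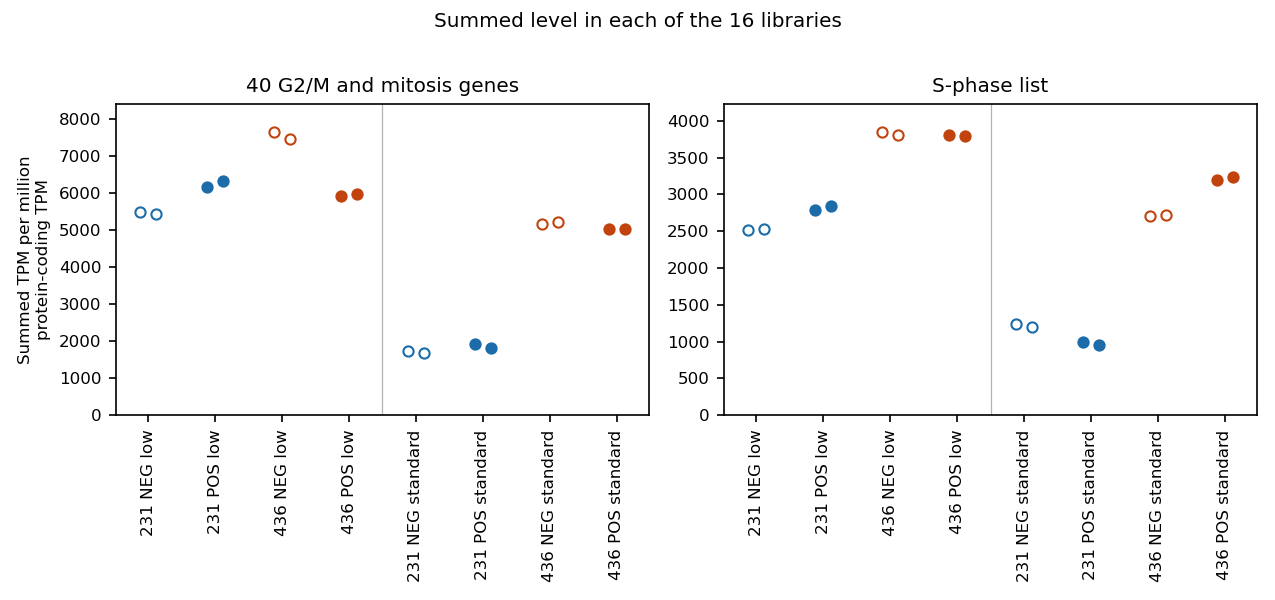
Summed coding-scaled TPM (TPM divided by the share of TPM on protein-coding genes) of the 40 members in each of the 16 libraries (left), and the same sum for the S phase list (right), open points for 7TGP-NEG and filled points for 7TGP-POS. For the members, in low serum MDA-MB-231 rises from 5478 and 5429 to 6144 and 6326 and MDA-MB-436 falls from 7632 and 7450 to 5916 and 5957, and MDA-MB-231 in standard serum lies lowest, at 1668 to 1910.

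The dark cells of the lines, which serve as the reference of the comparisons above and so share their libraries, already differed in these genes. In low serum 28 members were lower and 7 higher in the dark MDA-MB-231 cells than in MDA-MB-436 7TGP-NEG, with 8 DEGs among the lower ones and a median log2 difference of −0.57. Of all genes, 39.6% were lower, 39.6% were higher and 21.4% were DEGs on the lower side. FOXM1 differed by −2.42, HMMR by −2.05, NUSAP1 by −1.53 and KIF4A by −1.46, while ANLN was higher by 1.04 and BUB3 by 1.00. In standard serum 38 members were lower in dark MDA-MB-231 cells and 2 higher, and 34 of the 38 were DEGs, beside 41.4%, 37.3% and 25.4% of all genes. The median log2 difference was −1.87, beside −0.09 for all genes. FOXM1 had the largest difference at −4.53, a level 0.0434 times that of MDA-MB-436, then KIF4A at −3.21, NUSAP1 at −3.15 and HMMR at −2.72. BUB3 (1.51) and ECT2 (1.06) were the 2 on the other side. Of these calls between dark cells, 25 of 28 and 6 of 7 in low serum and 36 of 38 and 2 of 2 in standard serum were kept in each of 10 alternative analyses.

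Other genes of the same processes, in 6 lists of 137 genes without the members, were read for comparison, by their counts alone. Of all genes tested in low serum, 19% were higher and 19.9% lower in MDA-MB-231, and 26.6% higher and 25.3% lower in MDA-MB-436. In low serum, of 24 other mitotic kinesins and spindle genes, 11 rose and 1 fell in the bright cells of MDA-MB-231, and 2 were higher and 21 lower in MDA-MB-436. KIF14, a kinesin of cytokinesis, fell there by 1.17, ASPM, which focuses spindle poles, by 1.04, and CIT, the citron kinase, by 0.89 on the log2 scale. Of 27 other centromere and kinetochore genes, 8 were higher and 3 lower in MDA-MB-231 and 2 higher and 15 lower in MDA-MB-436. Of 17 condensin and cohesin genes, 10 were higher and 1 lower in MDA-MB-231, and 2 higher and 10 lower in MDA-MB-436. Of 22 genes of G2 control and the MuvB complexes, 8 were higher and 1 lower in MDA-MB-231, among them CHEK1, the checkpoint kinase, at 0.67, and 5 higher and 12 lower in MDA-MB-436. The anaphase-promoting complex, a ubiquitin ligase of mitosis and G1, gave 2 higher and 3 lower, and 2 higher and 5 lower, of 17.

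In standard serum the same lists were read again. Of all genes tested there, 16.8% were higher and 16.2% lower in MDA-MB-231, and 26.1% higher and 23.4% lower in MDA-MB-436. Some of the list counts lie near these shares. The other kinesins and spindle genes gave 7 higher and 2 lower in MDA-MB-231 and 5 higher and 14 lower in MDA-MB-436. The other centromere and kinetochore genes gave 9 higher and 5 lower in MDA-MB-231 and 12 higher and 8 lower in MDA-MB-436. G2 control and MuvB gave 3 higher and 6 lower in MDA-MB-231, and 10 higher and 4 lower in MDA-MB-436. The anaphase-promoting complex gave 0 higher and 3 lower, and 2 higher and 4 lower, and condensin and cohesin gave 5 higher and 2 lower in each line.

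The genes of S phase, which precedes G2, are given last, to be set beside the same shares of all genes. In low serum, of 29 tested, 19 were higher and 2 lower in MDA-MB-231 and 3 higher and 12 lower in MDA-MB-436, with RRM2, the ribonucleotide reductase subunit, at 0.47 in MDA-MB-231. In standard serum 1 was higher and 12 lower in MDA-MB-231, with MCM3, of the replicative helicase, at −1.04 and E2F1 at −1.14. There 8 were higher and 2 lower in MDA-MB-436, where 26.1% of all genes were higher and 23.4% lower, with MCM7, of the same helicase, at 1.33.

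**Figure D5:**
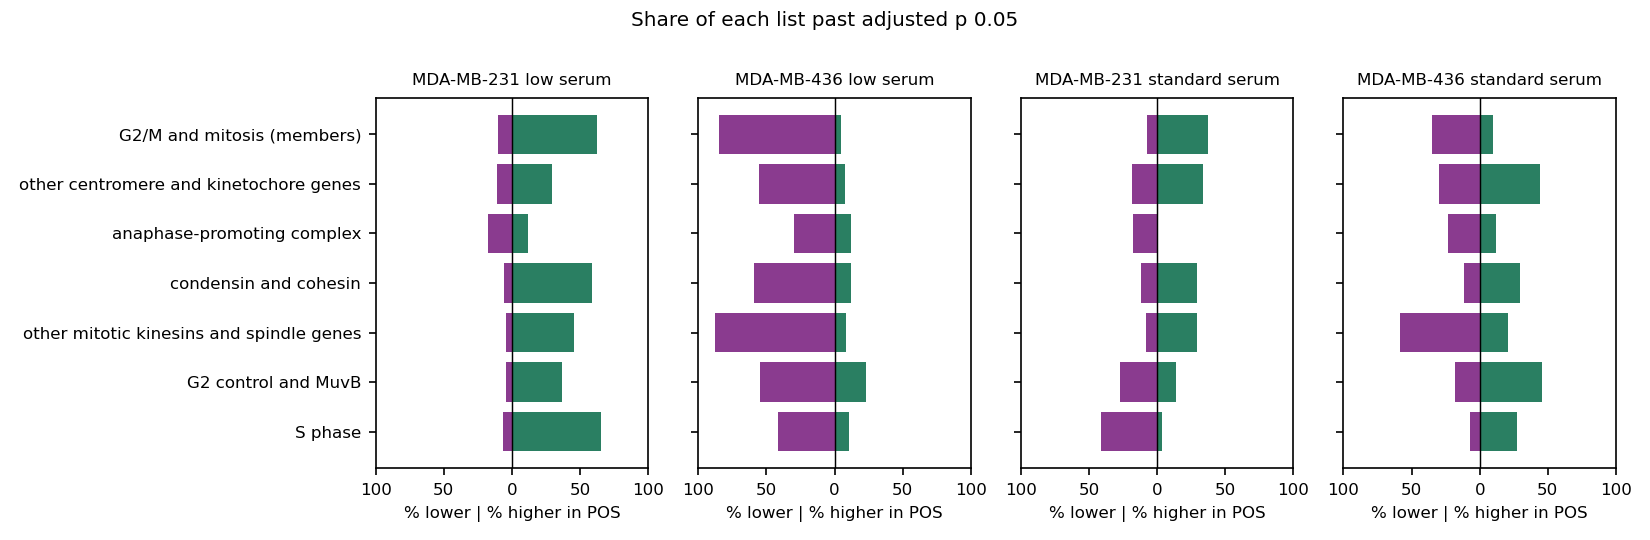
Share (%) of each list called higher (right) or lower (left) in 7TGP-POS than in 7TGP-NEG cells for the 40 members and 6 lists of related genes in the 4 comparisons. In MDA-MB-436 in low serum the members have 34 of 40 and the other kinesins 21 of 24 called lower, and of the 29 S phase genes tested 19 are called higher in MDA-MB-231 in low serum and 12 lower there in standard serum.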

How the data were processed

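The deposited counts are whole read pairs per gene, made by the authors: reads were screened against ribosomal RNA with Bowtie, aligned to hg19 with STAR and counted on Gencode v19 genes. The submitters' notes name STAR 2.6.1a. TPM values were also deposited by the authors, and how they were made is not given in the sources used here. Depth is given with the results, and 0 per-sample columns were left unused.

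Symbols and biotypes came from Gencode v44 lifted to GRCh37. For each serum condition, protein-coding genes with at least 10 counts over the 8 libraries entered 1 edgeR fit (TMM, robust quasi-likelihood, 4 groups), adjusted by Benjamini-Hochberg over all genes tested. An SE is the absolute log2 fold change over the square root of F, and a DEG also changes by 1 or more on the log2 scale in either direction. The members and lists were chosen with earlier results of these data known, and the model was tested on simulated data. S phase held 30 genes, of which 29 matched a tested gene.

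Library values are given for CDK1, CCNB1, PLK1, FOXM1 and MKI67, and per comparison for the 3 members with the largest change, the 3 with the smallest adjusted p and up to 4 with opposite calls in the lines. Other members are described by role.

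Alternatives were DESeq2, its size factors in edgeR, library totals, no filter, all biotypes, the replicate number as a block and each library left out. The tests ran under edgeR 4.0.16 and DESeq2 1.42.0 in R 4.3.3, and figures and promoter searches under matplotlib 3.10.9 and pandas 2.3.3 in Python 3.11.15.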

Additional observations from a re-analysis of the deposited data

Results flagged for a closer look

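The change from dark to bright cells differed between the lines by a test of the difference itself for many members. In low serum it was above in MDA-MB-231 for 35 members, beside 21.1% of all genes. In standard serum it was above for 18, beside 18.8% of all genes, and below for 3, beside 22.4%. Among members that moved in opposite directions, the change in MDA-MB-231 minus that in MDA-MB-436 in low serum was 1.63 for HMMR, 1.39 for PTTG1, 1.38 for KIF4A and 0.97 for KIF2C on the log2 scale. In standard serum it was 1.65 for HMMR, 1.37 for KIF4A, 1.04 for FOXM1 and 0.92 for BUB1. Each of these 8 differences kept its call in all 14 alternative analyses (edgeR's quasi-likelihood test or DESeq2, adjusted p under 0.05). The groups held 2 libraries each, too few to look for a library apart from its group.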

How the results depend on the processing

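Of 821 alternative values for 74 member results, 789 kept the side of the threshold, 26 lost it, 6 passed it and 0 turned a called direction. Counts for the lists of related genes were less steady: 79 of 492 alternative counts differed by over 1.5 times from those reported. With all biotypes, the lower members in MDA-MB-231 in low serum numbered 2 and their median log2 fold change was 0.24. For MDA-MB-436 in low serum, DESeq2, its size factors and all biotypes each gave 1 higher member, and the median was −0.50 with DESeq2 and with its size factors and −0.42 with library totals. With library totals the standard serum medians were 0.26 in MDA-MB-231 and −0.061 in MDA-MB-436, where 7 members were higher. Leaving out 1 library gave ranges of 2 to 3 lower members in MDA-MB-231 in low serum, and of 1 to 2 higher members, 1 to 2 DEGs and medians of −0.51 to −0.46 in MDA-MB-436. In standard serum the ranges were 8 to 14 higher and 1 to 3 lower members with medians of 0.15 to 0.24 in MDA-MB-231, medians of −0.20 to −0.038 in MDA-MB-436, and 1 to 5 members below in the difference between lines. The cause of these shifts was not tested.

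The replicate number as a block gave 25 higher and 3 lower members in MDA-MB-231 and 2 and 34 in MDA-MB-436 in low serum, and 16 and 4, and 5 and 14, in standard serum. The numbers were not taken as pairs, since the labels tie them to no shared batch or day and each comparison has only 2 pairs; the replicate differences of the 2 sublines correlated by −0.000271 and −0.114 in low serum, and by 0.213 and 0.166 in standard serum. A crossed pairing of MDA-MB-436 in low serum, chosen after seeing the data, gave 2 higher and 34 lower.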
